A study of Mus musculus with 8 samples.

Results

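The neuronal nicotinic acetylcholine receptor subunits form a family of 8 genes on this array (Chrna3, Chrna4, Chrna5, Chrna6, Chrna7, Chrnb2, Chrnb3 and Chrnb4), out of 18193 genes with a probe set of their own. They were chosen by gene name, after the difference of Chrna6 between injected and control retina on these same arrays was known, so the differences between the groups given here for the 8 genes describe the arrays and are not a test of the family. A probe set is the group of short array probes that together read 1 transcript, and 18 probe sets carried the symbol of 1 of these genes alone: 3 each for Chrna3, Chrna4 and Chrnb2, 2 each for Chrna5, Chrna6, Chrna7 and Chrnb4, and 1 for Chrnb3. Total RNA of mouse retina had been hybridised to Affymetrix expression arrays, 1 sample to an array. Of the 8 samples, 4 formed the control group, dissected fresh and labelled with a time of 0 days, and 4 formed the injected group, labelled as injected and as a compound-based treatment. All titles carry the word ENZO, which the labels do not explain. The labels give no strain, age, genotype, compound, dose, route or interval, and nothing that both groups share beyond the tissue. They hold no sham injection, so the needle, the compound and the handling enter each difference together and cannot be told apart. Whether a sample is 1 retina or a pool is not in the labels, nor is whether each sample of a group is from its own animal. The p-values therefore measure only the spread between these samples, which may be technical.

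Nicotinic receptors are cation channels built from several subunits around a central pore and opened by acetylcholine. The alpha subunits carry the paired cysteines of the binding site, the beta2 and beta4 subunits complete that site, and the alpha5 and beta3 subunits join as accessory subunits. In the retina, acetylcholine is released by starburst amacrine cells and is received by ganglion cells, amacrine cells and some bipolar cells. Ganglion cells carry the alpha6 and beta3 subunits in quantity, and receptors that contain the beta2 subunit carry the spontaneous waves of the developing retina.

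By the order of genes in the RefSeq annotation of mouse build GRCm38.p6, 5 of the 8 genes lie beside another member: Chrnb3 next to Chrna6 on chromosome 8, and Chrna5, Chrna3 and Chrnb4 in a row on chromosome 9. The annotated spans of Chrna5 and Chrna3 overlap. Promoters of 6 of the 8 genes were matched in RefSeq. The 250 bases before the start are shown for the row on chromosome 9, because its members are compared array by array further on. Capitals mark the GC box GGGCGG or its complement CCGCCC, a site known to bind SP1-family factors and searched on both strands. Chrna5 has 2 listed starts, and the one with GC boxes is shown. The Chrna5 window is chr9:54981238-54981487 on the plus strand, the Chrna3 window is chr9:55026563-55026812 on the minus strand and the Chrnb4 window is chr9:55048545-55048794 on the minus strand.
Chrna5: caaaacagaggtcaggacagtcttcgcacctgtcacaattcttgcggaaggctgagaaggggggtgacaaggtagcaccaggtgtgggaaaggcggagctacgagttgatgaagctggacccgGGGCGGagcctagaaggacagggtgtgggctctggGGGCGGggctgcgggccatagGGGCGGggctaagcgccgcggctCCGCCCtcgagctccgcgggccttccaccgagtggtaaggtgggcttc
Chrna3: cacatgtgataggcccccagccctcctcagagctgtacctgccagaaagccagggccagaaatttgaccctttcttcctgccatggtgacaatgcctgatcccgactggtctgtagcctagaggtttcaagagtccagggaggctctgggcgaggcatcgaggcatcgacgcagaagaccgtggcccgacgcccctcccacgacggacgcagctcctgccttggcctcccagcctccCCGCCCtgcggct
Chrnb4: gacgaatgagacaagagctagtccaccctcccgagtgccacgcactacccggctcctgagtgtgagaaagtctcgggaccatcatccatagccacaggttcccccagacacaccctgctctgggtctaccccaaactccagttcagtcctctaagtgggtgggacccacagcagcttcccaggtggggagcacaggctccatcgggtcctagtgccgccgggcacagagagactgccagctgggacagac
The Chrna5 window held 4 GC boxes, the Chrna3 window held 1 and the Chrnb4 window held 0. Among the other windows there were 3 for Chrna4, 1 for Chrna7, 0 for Chrnb2 and 0 at the other Chrna5 start. At least 1 GC box was in 32.7% of the 32851 RefSeq windows of this length, and in 4 of the 7 windows of these genes.

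Values below are quantile-normalised log2(intensity + 16), written as log2 values, unless they are said to be on the deposited scale. A probe set was tested when its mean over the 8 arrays reached 8.50, the 40th percentile of all probe sets, and the 6 of 18 probe sets under that floor are too dim for more than a description. A further limit holds for all of them: brightness differs between probe sets for reasons of design, so levels are compared between arrays and never between subunits. The tissue label was checked against rod genes, and the 7 with a probe set of their own, among them rod arrestin Sag at a control mean of 16.32, were above the floor. Median deposited intensity ran from 495 to 584 on the control arrays and from 519 to 766 on the injected arrays, the highest being injected replicate 3, to which limma's array weights also gave the lowest weight (0.191).

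In a limma fit over 27022 tested probe sets, 0% were called at an adjusted p under 0.05, and 0 of the 12 tested nicotinic probe sets were. Their adjusted p-values ran from 0.441 to 0.851. At an unadjusted p under 0.05, 3 of the 12 passed against 6.99% of all probe sets. The 2 that were lower in injected retina (one for Chrna6 and one for Chrna4) stand beside a background of 3.33%, and the 1 that was higher (Chrnb4) beside 3.66%. Since the family was proposed with this contrast in view, nothing is read from these counts. The median difference of the 12 was 0.25 log2 units, against -0.02 over all probe sets tested. With the 6 dim probe sets included it was -0.04, so the family as a whole had no settled direction. Of all 18 differences, 9 were positive and 9 negative.

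**Figure D1:**
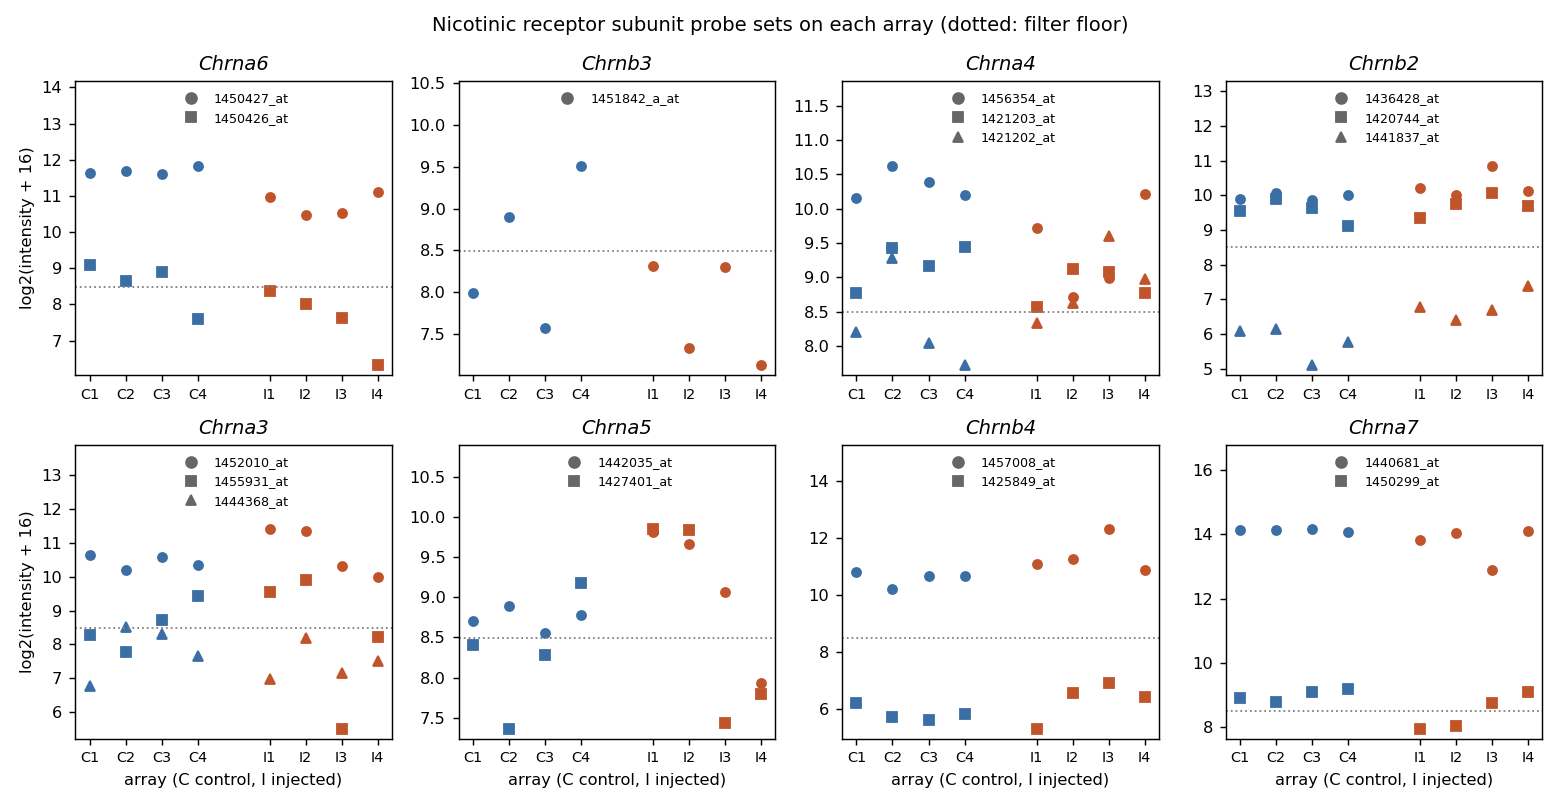
Log2(intensity + 16) of each nicotinic probe set on the 4 control arrays (C1 to C4, blue) and the 4 injected arrays (I1 to I4, orange), 1 panel per gene, with a different marker for each probe set and a dotted line at the filter floor of 8.50. The brighter Chrna6 probe set is lower on every injected array than on any control array, while most other panels overlap.

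Chrna6, the alpha6 subunit of ganglion cells and dopamine neurons, had the smallest p of the family (limma adjusted p = 0.441). Its brighter probe set (1450427_at) read 11.65, 11.68, 11.61 and 11.84 in control replicates 1 to 4 and 10.96, 10.48, 10.53 and 11.11 in injected replicates 1 to 4. All injected values lay below all control values, with a gap of 0.50. On the deposited scale the control arrays ran from 3142 to 3670 and the injected arrays from 1281 to 2329. The group means were 11.70 ± 0.10 and 10.77 ± 0.32 (SD, n = 4 each), a difference of -0.93 ± 0.20 (SE), or 52.6% of control on this scale. It was one of 2 tested nicotinic probe sets whose groups did not overlap. Over all probe sets tested, 2.60% were lower without overlap. In whole retina, fewer ganglion cells and less Chrna6 RNA per cell cannot be told apart.

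The second Chrna6 probe set (1450426_at) was dim. It read 9.09, 8.65, 8.91 and 7.59 in control replicates 1 to 4 and 8.37, 8.01, 7.64 and 6.32 in injected replicates 1 to 4. Its difference of -0.98 was close in size to that of the bright probe set, but control replicate 4 lay among the injected arrays and the groups overlapped. Without injected replicate 4 the difference of the dim probe set was -0.56, while the bright one was at -1.04.

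Chrnb3, the accessory beta3 subunit that partners alpha6 and the gene next to it on the chromosome, was read by 1 dim probe set (1451842_a_at). Control replicates 1 to 4 read 7.99, 8.90, 7.57 and 9.51, and injected replicates 1 to 4 read 8.31, 7.34, 8.30 and 7.13. The groups overlapped, with 2 controls above every injected array and 2 injected arrays below every control. The difference was -0.72, with means of 8.49 ± 0.88 and 7.77 ± 0.63 (SD, n = 4 each), and it was -0.38 without control replicate 4.

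The ganglion cell list, of genes known to mark these cells or, for Atoh7, their birth, was set beside Chrna6 array by array. Against their own control means, Chrna6 stood at -0.74, -1.22, -1.17 and -0.58 in injected replicates 1 to 4, and the mean of the 17 tested ganglion cell genes stood at -0.26, -0.27, -0.24 and -0.22. The control arrays of the list ran from -0.03 to 0.05. Both the list mean and Chrna6 lay below their controls on each injected array. By limma 0 of the 17 passed the adjusted threshold, 14 had a negative difference and 3 a positive one, and their median difference was -0.26 against -0.01 over all genes read at 1 probe set each. Other retinal cell types had medians of like size: -0.25 over 9 Müller glia genes, of which 7 were negative, and -0.33 over 7 rod genes, of which 6 were negative. In injected replicates 1 to 4 the Müller glia mean stood at -0.11, -0.41, -0.38 and -0.11, and the rod mean at -0.17, -0.63, -0.63 and 0.12. Both of these means, like Chrna6, were lowest on replicates 2 and 3, where the ganglion cell mean hardly varied between injected arrays. Single differences of the ganglion cell genes ran from -0.86 (Atoh7) to 0.10, so that of Chrna6 was larger in size than any of them. Whether Chrna6 differed from the list was not tested, because Chrna6 had been picked from the same contrast.

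Among the named ganglion cell genes, Atoh7, a transcription factor of ganglion cell birth, was at -0.86 ± 0.23 (SE; limma adjusted p = 0.554), read by a probe set that can bind related transcripts. The other Atoh7 probe set, below the floor, was at -0.21 with overlapping groups. Sncg, encoding gamma-synuclein, was at -0.56 ± 0.25 (limma adjusted p = 0.714). The neurofilament gene Nefl was at -0.29 ± 0.18 (limma adjusted p = 0.744), with a second tested probe set at -0.59 ± 0.25 (limma adjusted p = 0.712). The transcription factor gene Pou4f1 was at -0.14 ± 0.18, smaller than its SE. A second tested Pou4f1 probe set was at -0.52 ± 0.24 (limma adjusted p = 0.718). The surface protein gene Thy1 was at -0.09 ± 0.31, smaller than its SE. Thy1 turned to 0.02 without control replicate 2 and to 0.13 without injected replicate 2. The groups did not overlap at the tested Atoh7 probe set, at Sncg and at both Nefl probe sets. They overlapped at both Pou4f1 probe sets and at Thy1. Over all probe sets tested, 2.60% were lower without overlap. Starburst amacrine genes had a median difference of -0.01 over 7 tested, with 0 passing at an unadjusted or adjusted limma p under 0.05. Those tested were Chat, Sox2, Isl1, Megf10, Megf11, Fezf1 and Slit2. The median was the value of Isl1, while Chat was at 0.42, and Slc18a3 and Slc5a7 were below the floor. Whether these genes read starburst cells alone was not tested. Their array means ran from -0.26 to 0.12 in control and from -0.08 to 0.11 in injected retina, so the groups overlapped.

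**Figure D2:**
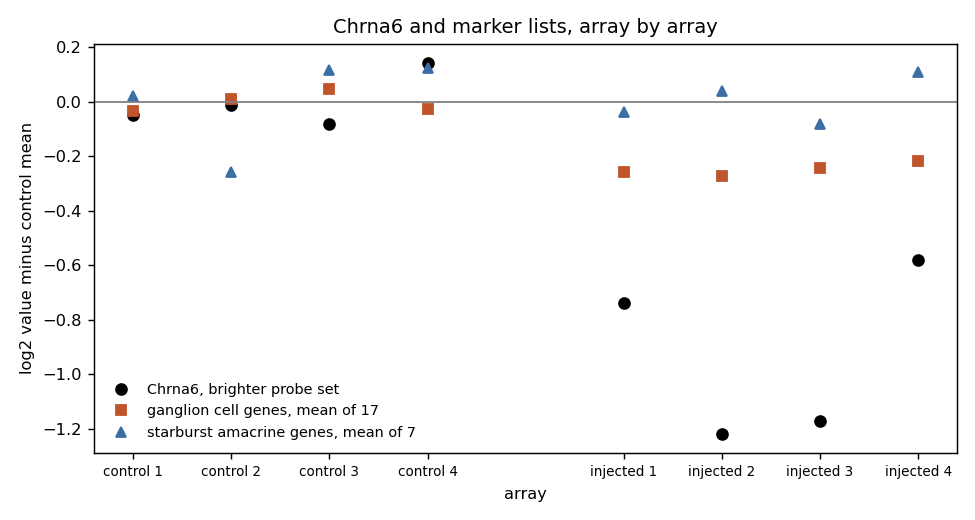
Log2 value minus the gene's own control mean on each of the 8 arrays, for the brighter Chrna6 probe set (circles), the mean of 17 ganglion cell genes (squares) and the mean of 7 starburst amacrine genes (triangles). On the injected arrays Chrna6 lies between -1.22 and -0.58, the ganglion cell mean between -0.27 and -0.22, and the starburst mean around 0.

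Mean levels of other cell markers also varied between the arrays. The 8 tested of 10 microglia genes ran from -0.16 to 0.26 around their control mean in control and from 0.54 to 1.15 in injected arrays, with Itgam and Aif1 below the floor. The 5 tested of 9 lens genes ran from -1.65 to 1.65 and from 1.24 to 4.58, with Bfsp1, Bfsp2, Cryaa and Mip below the floor. The 8 tested of 10 pigment epithelium and pigment cell genes ran from -1.05 to 1.5 and from -2.28 to -0.04, with Best1 and Mlana below it. Müller glia genes, 9 tested of 9, ran from -0.12 to 0.11 in control and from -0.41 to -0.11 in injected arrays. Rod genes, 7 tested of 9, ran from -0.08 to 0.10 and from -0.63 to 0.12. Their part in the nicotinic differences was not tested. Chrna6 was at -0.93 without control replicate 2, the array highest in pigment cell genes, and at -0.83 without injected replicate 2, the array highest in lens genes.

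Chrna4 and Chrnb2 encode the alpha4 and beta2 subunits, which together form the most common receptor of the brain. The 3 Chrna4 probe sets did not give 1 direction. Probe set 1456354_at read 10.16, 10.63, 10.39 and 10.20 in control replicates 1 to 4 and 9.72, 8.71, 8.99 and 10.22 in injected replicates 1 to 4. Of the injected arrays, 3 lay below all controls and replicate 4 lay among them. The difference was -0.93 ± 0.33 (SE), or 52.4% of control. Probe set 1421203_at was at -0.32 ± 0.22 with overlapping groups. Probe set 1421202_at had the opposite sign, at 0.57 ± 0.38, and 0.33 without injected replicate 3. The array therefore gives no single statement for Chrna4, and which transcripts the 3 probe sets read is not stated in the platform annotation.

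The annotated span of Chrnb2 overlaps that of the RNA-editing gene Adar. All 3 Chrnb2 probe sets were positive, by small amounts where the signal was bright. Probe set 1436428_at ran from 9.88 to 10.08 in control and read 10.21, 10.01, 10.86 and 10.12 in injected replicates 1 to 4. Injected replicate 2 lay among the controls and replicate 3 stood well above the rest. The difference was 0.34 ± 0.22 (SE), and 0.15 without injected replicate 3. Probe set 1420744_at was at 0.17 ± 0.23, smaller than its SE. The third, 1441837_at, differed by 1.03 without overlap, but its control arrays ran from 5.11 to 6.15 and its injected arrays from 6.40 to 7.38, far below the floor. On the deposited scale that is 17 to 51 against 57 to 191 intensity units.

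**Figure D3:**
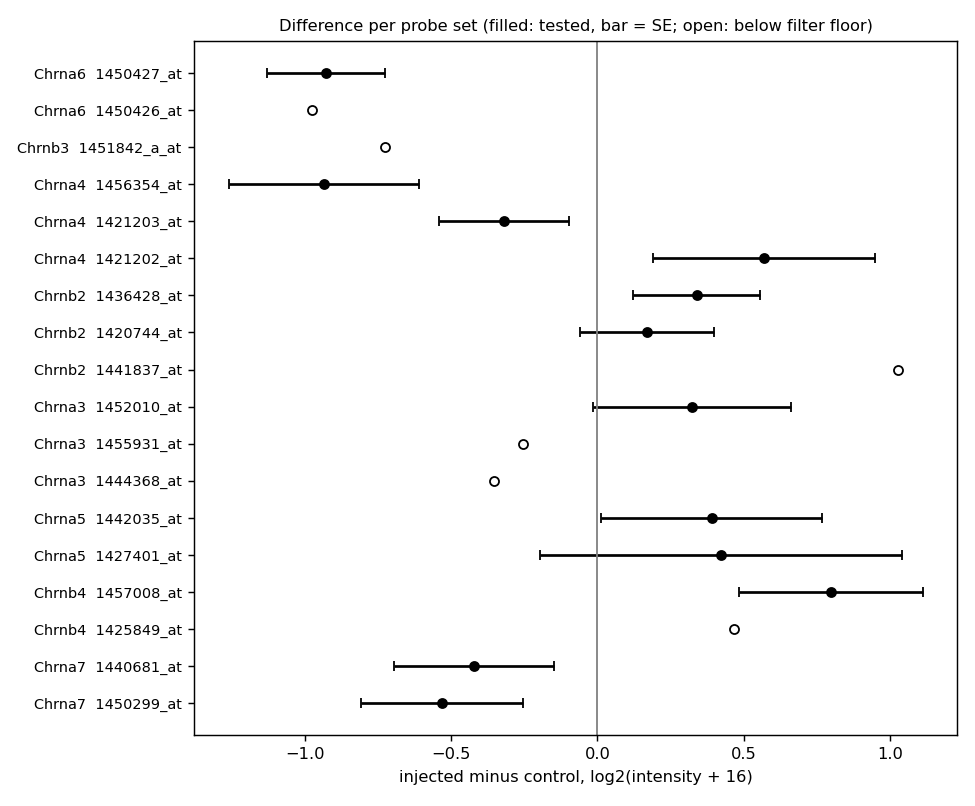
Injected minus control on the log2(intensity + 16) scale for all 18 nicotinic probe sets, grouped by gene; filled points are the 12 tested probe sets with bars of 1 SE, and open points are the 6 below the filter floor, drawn without error. Both Chrna6 points lie near -0.95 on the axis, the 3 Chrna4 points lie on both sides of 0, and the brighter Chrnb4 point lies at 0.80.

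Chrnb4 encodes the beta4 subunit, typical of autonomic ganglia and of a few brain nuclei, where it pairs with alpha3. Its bright probe set (1457008_at) read 10.81, 10.20, 10.65 and 10.65 in control replicates 1 to 4 and 11.09, 11.26, 12.30 and 10.86 in injected replicates 1 to 4. Every injected value was above every control value, by as little as 0.05 between injected replicate 4 and control replicate 1. Over all probe sets, 2.47% were higher without overlap. The group means were 10.58 ± 0.26 and 11.37 ± 0.64 (SD, n = 4 each), a difference of 0.80 ± 0.31 (SE), or 174% of control. Injected replicate 3 carried much of it, and without that array the difference was 0.49. The second Chrnb4 probe set (1425849_at), far below the floor, was at 0.47 with overlapping groups.

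Chrna3 encodes the alpha3 subunit, which pairs with beta4 and beta2, and Chrna5 the accessory alpha5 subunit. Their better-read probe sets split the injected arrays in the same way. Chrna3 (1452010_at) read 10.64, 10.21, 10.60 and 10.35 in control replicates 1 to 4 and 11.41, 11.37, 10.33 and 9.99 in injected replicates 1 to 4. Chrna5 (1442035_at) read 8.70, 8.90, 8.55 and 8.78 in control replicates 1 to 4 and 9.82, 9.67, 9.06 and 7.94 in injected replicates 1 to 4. In both, injected replicates 1 and 2 were above all controls and replicate 4 was below all controls, while replicate 3 lay among the controls for Chrna3 and just above them for Chrna5. The differences between groups, 0.32 ± 0.34 for Chrna3 and 0.39 ± 0.38 for Chrna5 (SE), were about as large as their errors. Single injected arrays moved them: that of Chrna3 was 0.11 without replicate 1, 0.13 without replicate 2 and 0.58 without replicate 4, and that of Chrna5 was 0.16, 0.21 and 0.78.

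The other Chrna5 probe set (1427401_at) and the Chrna3 probe set just under the floor (1455931_at) shared only the high part of this split. Chrna5 read 9.85, 9.84, 7.44 and 7.80 in injected replicates 1 to 4 against 7.36 to 9.18 in control. Chrna3 read 9.56, 9.89, 5.50 and 8.23 in injected replicates 1 to 4 against 7.76 to 9.42 in control. Injected replicates 1 and 2 were above every control in both probe sets. Replicate 3 was the lowest injected array in both, and replicate 4 lay among the controls. Their differences were 0.42 ± 0.62 (SE) for Chrna5 and -0.25 for Chrna3. That of Chrna5 was 0.05 without injected replicate 1 or 2, and 0.86 without injected replicate 3. The Chrna3 difference rested on injected replicate 3, without which it was 0.68, and it was 0.04 without control replicate 4. The third Chrna3 probe set (1444368_at), dimmer still, did not show the split and was at -0.35. On the deposited scale the Chrna3 probe set 1452010_at read 2769, 2461, 1428 and 1123 in injected replicates 1 to 4, in the same order. Its controls ran from 1122 to 1612, so replicate 4 was not below all of them on that scale. The Chrna5 probe set 1442035_at read 868, 703, 680 and 285 there, against 344 to 435 in control. Its replicate 3 thus lay near replicate 2 and well above the controls, so the split was less alike in the 2 genes on that scale. Injected replicates 3 and 4 are also the arrays of highest median deposited intensity, 766 and 694 against 569 and 519 for replicates 1 and 2, and the part of that in the split was not tested. Chrnb4, the next gene in the row, was highest on injected replicate 3 and did not follow it.

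**Figure D4:**
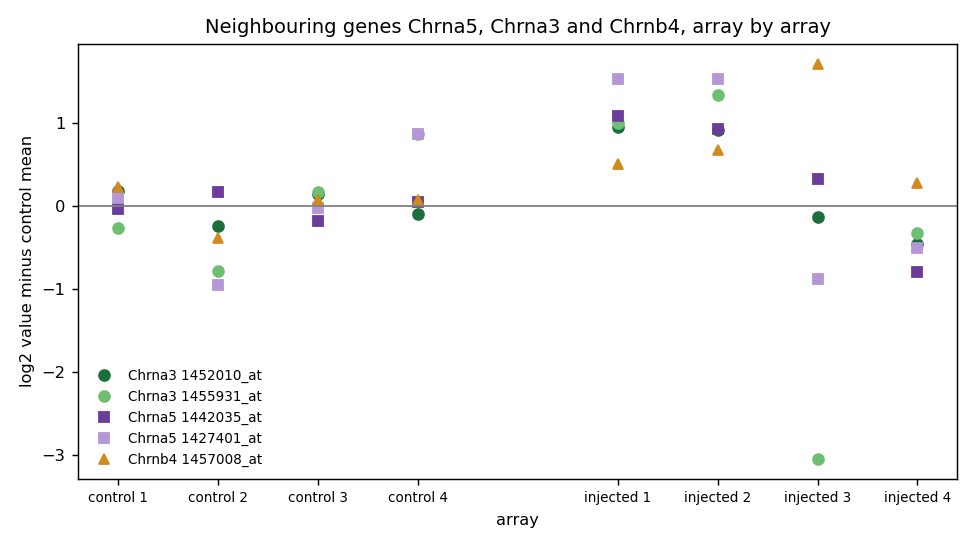
Log2 value minus the probe set's control mean on each array for neighbouring genes of chromosome 9: Chrna3 (green circles), Chrna5 (purple squares) and Chrnb4 (orange triangles). The 4 Chrna3 and Chrna5 probe sets drawn are above all their controls on injected replicates 1 and 2 and lower on replicates 3 and 4. Chrnb4 is highest on injected replicate 3. The dimmest probe sets are not drawn: Chrna3 1444368_at, which did not show this split, and Chrnb4 1425849_at.

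Chrna7 encodes the alpha7 subunit, which forms receptors of a single subunit type that pass calcium. Both of its probe sets were lower. The bright one (1440681_at) read 14.15, 14.15, 14.16 and 14.07 in control replicates 1 to 4 and 13.82, 14.04, 12.89 and 14.11 in injected replicates 1 to 4. Injected replicate 4 lay among the controls, replicates 1 and 2 lay just under them and replicate 3 far under. On the deposited scale replicate 3 was at 6894, against 14608 to 17505 on the other injected arrays and 17899 to 18265 in control. On that scale replicate 4, at 16994, was also below all controls, so its overlap with them was seen only after normalisation. The log2 difference of -0.42 ± 0.27 (SE) was -0.15 without injected replicate 3. The dimmer probe set (1450299_at) ranked the arrays otherwise. It read 7.96, 8.06, 8.75 and 9.10 in injected replicates 1 to 4 against 8.79 to 9.20 in control, with a difference of -0.53 ± 0.28.

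Of the 7 genes with several probe sets, 5 had 1 sign over all of them (Chrna5, Chrna6, Chrna7, Chrnb2 and Chrnb4), and Chrna3 and Chrna4 had both. The sign of each of the 12 tested probe sets held under all 16 alternatives tried, other scalings and each array left out included, with adjusted p-values from 0.170 to 0.985. Called under any of them were 0 of 12.

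The remaining genes of acetylcholine signalling were taken as 4 lists with 39 genes, of which 35 had a probe set of their own and 20 were tested, each at its brightest probe set. By limma 0 of 20 passed the adjusted threshold, the lowest adjusted p being that of Lypd6b. Of the 20, 4 were lower and 0 higher with unadjusted p under 0.05, against 2.91% lower and 3.77% higher over all genes read in this way. These lists too were chosen with earlier results of these data known, so nothing is read from these counts. The median difference of the 20 was -0.08, against -0.01 over all genes. Dim signal limits these lists: 6 of the 7 other nicotinic subunits that were read, the muscle subunits Chrna1, Chrnd, Chrne and Chrng together with Chrna2 and Chrna9, were below the floor. The tested one was Chrnb1, the muscle beta subunit, at 0.23 ± 0.43 (SE), and -0.10 without injected replicate 3. Of 10 skeletal muscle markers, which an eye dissection can bring in, 8 were below the floor as well.

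Proteins that assemble or tune nicotinic receptors gave 3 of the 4 low values. Lypd6b and Lypd6 encode membrane-anchored proteins of the Ly6 family that bind nicotinic receptors. Lypd6b read 10.48, 11.04, 10.77 and 10.98 in control replicates 1 to 4 and 10.04, 10.19, 9.69 and 10.19 in injected replicates 1 to 4. The groups did not overlap, and the difference was -0.79 ± 0.20 (SE; limma adjusted p = 0.532). Lypd6 read 13.72, 13.79, 13.41 and 13.36 in control replicates 1 to 4 and 13.04, 12.78, 11.99 and 13.36 in injected replicates 1 to 4. The highest injected and the lowest control array met at 13.36. The difference was -0.78 ± 0.29 (adjusted p = 0.709), it was -0.51 without injected replicate 3, and the other Lypd6 probe sets were at -0.72 and -0.23.

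Dlg4, the postsynaptic scaffold PSD-95, was at -0.83 ± 0.36 (SE; limma adjusted p = 0.713), at -0.54 without injected replicate 3, and a second tested probe set was at 0.13. Ywhah, an adaptor of the 14-3-3 family that aids alpha4 assembly, was at 0.39 ± 0.19 (adjusted p = 0.725) and 0.26 without injected replicate 3. Every injected value of Ywhah lay above every control value, by a gap of 0.10. The receptor chaperones Tmem35a and Ric3, singled out after their values were seen, were at -0.73 ± 0.40 and -0.06 ± 0.32. In the list of 12 tested genes 3 differences were positive and 9 negative, with a median of -0.06.

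Of the 6 tested genes of acetylcholine turnover, 4 differences were negative and 2 positive, with a median of -0.26. Chat, which makes acetylcholine in starburst cells, read 8.91, 8.49, 9.52 and 8.85 in control replicates 1 to 4 and 9.15, 9.29, 9.77 and 9.25 in injected replicates 1 to 4. Control replicate 3 lay among the injected arrays, and the difference was 0.42 ± 0.25 (SE; limma adjusted p = 0.744), or 0.27 without control replicate 2. The vesicular transporter gene Slc18a3, the choline transporter gene Slc5a7 and the esterase gene Ache were below the floor. Their group means were 6.95 ± 0.92 and 7.08 ± 1.22 for Slc18a3, 6.92 ± 1.35 and 7.05 ± 2.07 for Slc5a7 and 8.22 ± 0.81 and 7.90 ± 1.17 for Ache, control first (SD, n = 4 each). Each of those differences was smaller than the spread within a group.

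Bche encodes butyrylcholinesterase, which also splits acetylcholine. It read 10.15, 10.66, 10.48 and 10.63 in control replicates 1 to 4 and 10.07, 9.81, 9.10 and 9.63 in injected replicates 1 to 4. The groups did not overlap, by a gap of 0.08 between replicate 1 of each. The difference was -0.83 ± 0.24 (SE; limma adjusted p = 0.588), while the other Bche probe sets, both below the floor, were at 1.10 and -1.25. Prima1, the membrane anchor of acetylcholinesterase, was at -0.49 ± 0.32 and at -0.22 without control replicate 2, with a second probe set at 0.56. Choline kinase gene Chka was at -0.44 ± 0.41, and at 0.0021 without injected replicate 3. Its other probe sets, both tested, were at -0.07 ± 0.28 and -0.33 ± 0.28. Of the muscarinic receptors, the other class of acetylcholine receptor, Chrm1 alone was tested, at -0.40 ± 0.30 (adjusted p = 0.758) and -0.14 without injected replicate 1.

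**Figure D5:**
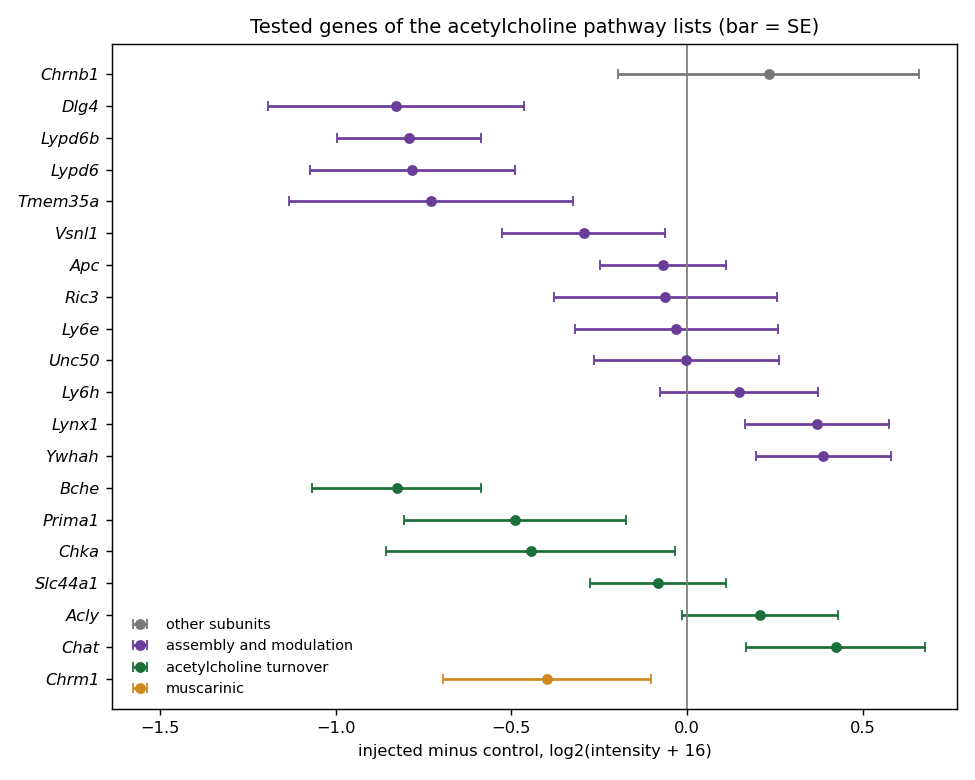
Injected minus control on the log2(intensity + 16) scale for the 20 tested genes of the 4 acetylcholine pathway lists, with bars of 1 SE and 1 colour per list. Dlg4, Lypd6b, Lypd6 and Bche lie between -0.83 and -0.78, and Chat and Ywhah lie near 0.4.

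Genes most like 3 of the subunits were found by the root mean square (RMS) difference between log2 values over the 8 arrays, each gene centred on its own mean. Those nearest to Chrna6, among 4830 genes of comparable spread, were Pank1, a pantothenate kinase (RMS difference 0.14), Leng1 (0.14), the secreted protein gene Fam3c (0.15), the photoreceptor calcium channel gene Cacna1f (0.16) and cone arrestin Arr3 (0.20). Their differences between groups ran from -0.91 for Fam3c to -0.77 for Leng1 and Arr3. The match covers all 8 arrays and so includes the step between groups, which makes like differences a product of the selection. Nearest to Chrna3, among 5150 genes, were the acyltransferase gene Agpat5 (0.18), Sccpdh (0.21), Yju2 (0.22), the calcium sensor gene Doc2b (0.23) and the selenoprotein gene Msrb1 (0.24). The dim Chrnb3 probe set had no close neighbour among 1907 genes: E2f7 (0.42), Gm17733 (0.46), 4932437C15Rik (0.47), Tpd52l1 (0.48) and Inmt (0.48) came first, against an SD of 0.80 for Chrnb3 itself over the arrays. Genes of like profile on 8 arrays share the arrays' normalisation, and this ranking is a description.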

How the data were processed

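The values were linear intensities, 1 per probe set and array, deposited by the authors; the equal trimmed mean of all arrays (2% left out at each end) shows a global scaling, and its software is not given in the sources used here. The table held 45101 probe sets, and 64 array controls were left out. Array medians differed 1.55 times, so a quantile normalisation was run (R 4.3.3, limma 3.58.1) and values taken as log2(intensity + 16); the 16 understates changes of dim genes. Probe sets at or above the 40th percentile of mean log2 value (floor 8.50, about 345 intensity units) were tested with limma (lmFit, eBayes) and Benjamini-Hochberg adjustment over all of them, at a threshold of 0.05. Symbols came from the platform annotation, single symbols only, and 8 of 8 members matched RefSeq by Entrez identifier. The annotation names no build, so probe sets have no coordinates; promoter windows are from RefSeq on GRCm38.p6. Members, gene lists and the rule for named genes were chosen with earlier results of these data known. The rule took all members, up to 4 genes of smallest p of each pathway list together with Chat, Slc18a3, Slc5a7 and Ache, 5 fixed ganglion cell genes (Pou4f2 had no probe set with its symbol alone) with the 2 of smallest p, and the 5 genes most like Chrna6, Chrnb3 and Chrna3. Fits were tested on simulated data. The number of arrays limits precision. Other settings tried were a pseudocount of 1 or of 64, testing without the filter, the deposited scaling, median centring, a trended robust prior, array weights, a replicate block, 1 probe set a gene and each array left out. Figures were drawn with matplotlib 3.10.9.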

Additional observations from a re-analysis of the deposited data

Results flagged for a closer look

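Of 72 groups of 4 values looked at (36 probe sets named in the text, in control and in injected retina), 2 had an array far from the other 3 by Dixon's criterion at the 95% level, and chance alone sets an array apart in about 1 group in 20. In Chrna7 (1440681_at), control replicate 4 was at 14.07 while the other controls lay between 14.15 and 14.16. In Sncg, injected replicate 4 was at 9.34 while the other injected arrays lay between 10.06 and 10.11, and without it the difference of Sncg was -0.38 in place of -0.56.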

How the results depend on the processing

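The count of probe sets called by limma was 0 in the reported setting and 8 with array weights (7 higher, 1 lower); with each array left out in turn it ran from 0 to 38, the last without injected replicate 4 (31 higher, 7 lower), and 0 nicotinic probe sets were among them. At an unadjusted p under 0.05 the reported count was 1889. The median difference of the nicotinic probe sets, 0.25, was -0.041 with no filter (18 probe sets), 0.36 under the deposited scaling and 0.16 with array weights, and ran from 0.081 without injected replicate 1 to 0.29 without injected replicate 4; without injected replicates 2 or 3 it was 0.089 or 0.10, and without control replicate 4 0.16. Median centring, which moved the median of all tested probe sets to -0.15, gave -0.29 for the acetylcholine pathway genes (reported -0.08) and -0.34 for the ganglion cell and starburst genes together (reported -0.16). With each array left out the pathway median ran from -0.17 to -0.05 and that of the ganglion cell and starburst genes from -0.22 to -0.12. Differences that turned sign with an array left out were those of Thy1 (range -0.33 to 0.13), Chrnb1 (-0.10 to 0.59), Chka (-0.66 to 0.0021) and, among probe sets below the floor, the Chrna3 probe set 1455931_at (-0.79 to 0.68), Ache (-0.69 to 0.18), Slc18a3 (-0.31 to 0.60) and Slc5a7 (-0.56 to 0.73). The cause of these shifts was not tested. Replicate numbers are shared by the groups, but same-numbered arrays did not deviate together (correlations of -0.03 to 0.08), so they were not treated as paired; with the replicate block 0 probe sets were called and the nicotinic median was 0.25. Dim signal limits the 6 nicotinic probe sets below the floor.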

Other observations

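Amacrine cells other than starburst cells also receive acetylcholine. A list of general amacrine markers, not particular to those cells, gave 10 tested genes with a median difference of -0.10. Of the 10, 0 passed limma's adjusted threshold and 1 was lower at an unadjusted p under 0.05. Over all genes read at 1 probe set each, 2.91% were lower and 3.77% higher at that unadjusted p. That gene was Calb2, encoding the calcium-binding protein calretinin, with means of 13.07 ± 0.18 for the controls and 12.55 ± 0.26 for the injected arrays (SD, n = 4 each) and a difference of -0.52 ± 0.20 (SE; limma adjusted p = 0.709). Th, the rate-limiting enzyme of dopamine synthesis, was at 0.92 ± 0.46 with its control mean (8.09) below the floor. The GABA synthesis genes Gad1 and Gad2 were at -0.20 ± 0.17 and -0.29 ± 0.23, and the glycine transporter gene Slc6a9 at 0.07 ± 0.21. These genes were singled out after their values were seen.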
